A study of Homo sapiens with 21 samples.

Results

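The comparison described here is cadmium against calcium in cells that had also received diethylstilbestrol (DES), a synthetic estrogen that the study used as an antagonist of the estrogen-related receptor beta, ESRRB. It rests on 3 libraries of DES with cadmium and 3 libraries of DES with calcium. Its members are the 13302 genes, of 58735 in the table, whose model is at least 200 bases long and whose mean level over these 6 libraries was at least 0.5 FPKM (fragments per kilobase of gene, scaled to the library's size). The mean just inside that limit was 0.50006 FPKM for LSM11 and just outside it 0.49995 FPKM for AC021054.1. Of the members, 10711 (80.5%) were protein-coding genes and 790 were antisense transcripts.

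The cells were MDA-MB-453, an established breast cancer line that lacks estrogen receptor alpha, labelled as wild type, and mRNA was sequenced in 21 libraries of 7 groups of 3. DES was given at 10 µM, 3 h before the metal, and the metal stayed for 24 h. Calcium was given at 10 mM in serum-free medium and cadmium at 10 µM in medium with 1% charcoal-stripped serum, so that the metal, its dose and the serum differ together and cannot be told apart. The other groups used below are DES alone, for which the serum is not given in the sources used here, and calcium or cadmium without DES at the same doses and in the same serum. Control cells and cells given GSK4716, used as an ESRRB agonist, at 5 µM for 24 h enter only the fit of all groups. Nothing in the sources used here says that the 3 libraries of a group came from separate cultures, and the p-values measure only the spread between libraries.

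Cadmium is a toxic metal without a physiological role in human cells. It binds thiols and displaces zinc, and released zinc engages the transcription factor MTF1, which drives the metallothioneins (small cysteine-rich proteins that hold zinc, copper and cadmium) and the zinc exporter SLC30A1. Damage to proteins also engages HSF1 and the heat shock chaperones. Calcium outside the cell acts through channels and receptors on calmodulin and kinase pathways, whose first nuclear targets include the immediate early genes of the FOS, JUN, EGR and NR4A families.

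The libraries held 14435925 to 25090928 fragments on genes, and all FPKM values came out as whole fragments within 0.01 when multiplied back. The library size behind the FPKM of cadmium replicate 1 was 0.693 of its fragments on genes, against 0.862 to 0.960 in the other 5 libraries. This raises its deposited values relative to theirs. The DES with cadmium libraries differed more among themselves (median SD over genes 0.496 on the log2 scale) than the DES with calcium libraries (0.277). Pearson's r across genes, which are not independent replicates, was 0.848 to 0.915 within DES with cadmium, 0.928 to 0.941 within DES with calcium, and as high as 0.943 between cadmium replicate 3 and calcium replicate 3. Cadmium replicate 1 had the fewest genes detected, 16605, against 17478 to 24202 in the other 5 libraries. All 10 markers of luminal breast cells were among the members, with summed levels of 2521 to 5063 FPKM with cadmium and 2527 to 3579 FPKM with calcium. No marker of basal, endothelial, immune or pluripotent cells was a member, and each of these lists summed to at most 0.652 FPKM in any library. Of 5 fibroblast markers COL1A1 was a member, at 9.69 to 28.3 FPKM with cadmium and 9.34 to 16.7 FPKM with calcium, while LUM was at 0 in all 6 libraries.

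By limma on log2(FPKM + 0.1) with Benjamini-Hochberg adjustment, 1 gene of 13302 (0.00752%) passed an adjusted p of 0.05. It was KLKP1, which was higher with cadmium. At an unadjusted p under 0.05 there were 673 genes higher with cadmium (5.06%) and 938 lower (7.05%). All 3 cadmium libraries lay above all 3 calcium libraries for 1246 genes (9.37%) and below them for 1532 genes (11.5%). The median log2 fold change over all members was −0.04, with quartiles of −0.45 and 0.31, and the median standard error was 0.36. Fold changes here are on the log2(FPKM + 0.1) scale, which understates the change of low genes.

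The same contrast in a fit of all 7 groups, whose pooled spread is smaller, called 225 genes higher with cadmium (1.69%) and 279 lower (2.1%). That fit assumes that the DES with cadmium libraries vary as the other groups do, which the median SD does not bear out. Calls from it are named below as such, and every other gene is given by its values. Without cadmium replicate 2 the test called 15 genes, and without cadmium replicate 1 it called HMGB1P10 alone. With 3 libraries a side, exact permutation cannot give a two-sided p under 0.1, and it made no calls here.

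**Figure D1:**
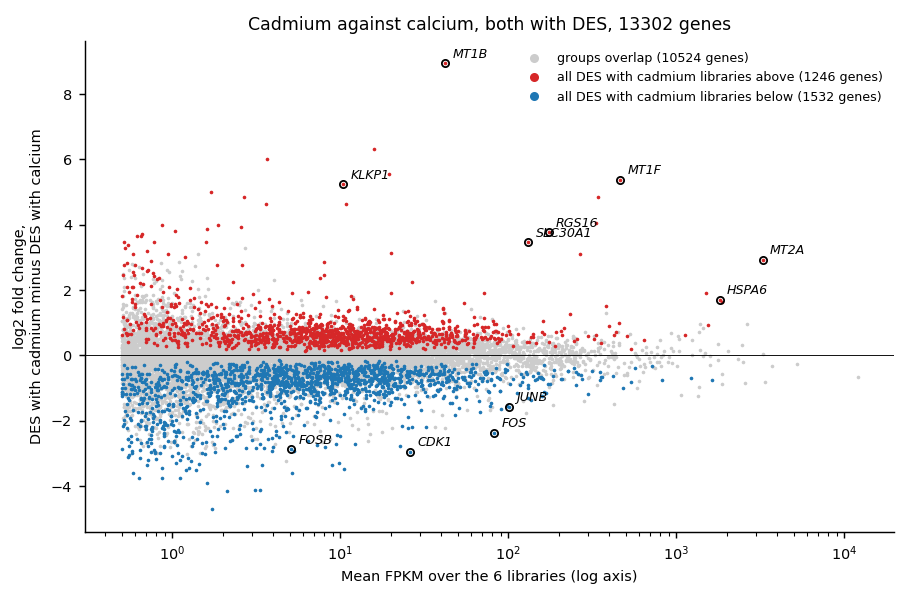
Each point is 1 of the 13302 genes, with its mean FPKM over the 6 libraries on a log axis and its log2 fold change, DES with cadmium minus DES with calcium. Red genes have all 3 cadmium libraries above all 3 calcium libraries (1246 genes), blue genes have them below (1532 genes), and circles mark genes named in the text; MT1B lies highest.

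The metallothionein genes held some of the highest fold changes. They lie side by side on chromosome 16, and 10 of the 12 listed were members; MT1A and MT3 were not, with MT1A detected in cadmium replicate 3 alone (1.67 FPKM). Of the 10, MT1B, MT1G, MT1H, MT1L, MT1M and MT4 were at 0 in all 3 calcium libraries and became members only through the cadmium libraries, so that their direction was fixed by the filter and no count or median over the list is given. MT2A, MT1E, MT1F and MT1X were measured on both sides, and for each of these 4 the cadmium libraries lay above all calcium libraries. No metallothionein was called by the 6-library test, while these 4 were called as higher by the 7-group fit. Members of the family are close copies of each other, and how fragments were divided among them is uncertain.

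MT2A, the most abundant metallothionein, measured 10176, 1839.7 and 5493 FPKM with cadmium and 342, 610.3 and 1117 FPKM with calcium. Its lowest cadmium library was above its highest calcium library (log2 fold change 2.93 ± 0.68 SE, adjusted p = 0.29). MT1F measured 1922, 127 and 691 FPKM against 5.02, 15.5 and 29.2 FPKM (5.38 ± 1.00, adjusted p = 0.196). MT1X measured 1551, 78.4 and 302 FPKM against 9.24, 16.8 and 51.0 FPKM, and MT1E 1433, 97.2 and 444 FPKM against 2.69, 23.9 and 39.6 FPKM. In all 4 genes cadmium replicate 1 was the highest library and replicate 2 the lowest of the cadmium libraries. The calcium libraries of these genes were close to DES alone, where MT2A measured 297, 336 and 792 FPKM and MT1F 8.42, 7.94 and 22.4 FPKM.

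MT1B was detected on one side only. It measured 105, 8.16 and 139 FPKM with cadmium and 0 in all 3 calcium libraries. Against a limit of 3 fragments per library it was at least 185-fold higher. The filter fixed its direction, so no p-value is given for it. MT4, known from stratified epithelium, measured 19.2, 0.245 and 75.9 FPKM with cadmium, and MT1L, a pseudogene of the cluster, 0.756, 1.93 and 13.4 FPKM, at least 12.8-fold higher, or at least 3.20-fold without cadmium replicate 3. Both were at 0 in all calcium libraries. MT1H, MT1G and MT1M were also at 0 in every calcium library and reached 8.76, 15.8 and 7.89 FPKM in cadmium replicate 3, but MT1G was at 0 in cadmium replicate 2 and MT1M in replicate 1. AC026461.3, a lincRNA on the minus strand next to MT2A (chr16:56609501-56611375, GRCh38), measured 6.44, 3.09 and 12.4 FPKM against 0 in every calcium and DES library. It was at least 18.8-fold higher, or 12.2-fold without cadmium replicate 3. This gene too became a member only through the cadmium libraries, so no p-value is given for it. Of the genes measured on both sides, limma called MT1F as higher without cadmium replicate 2 (adjusted p = 0.0289), and without replicate 1 it did not.

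**Figure D2:**
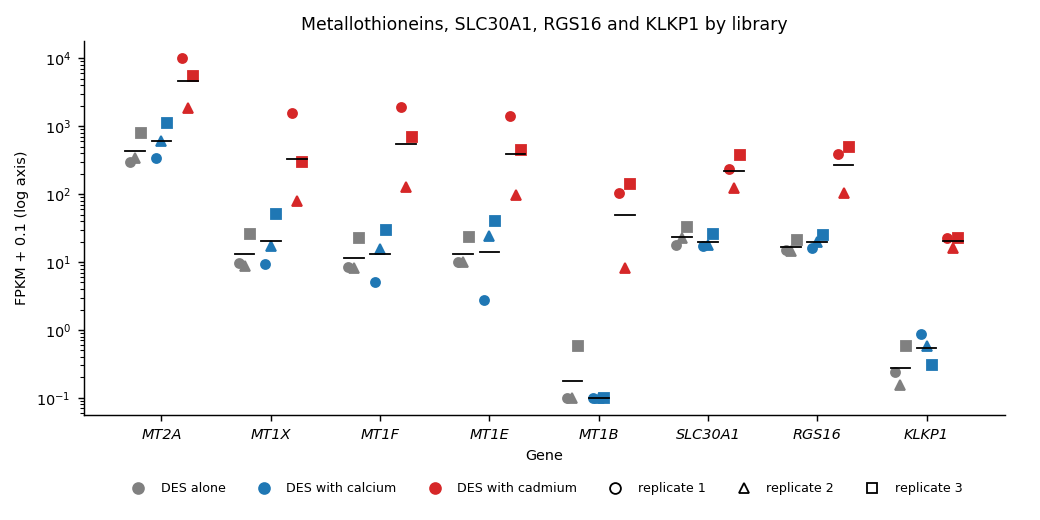
FPKM + 0.1 on a log axis for 8 genes, with 1 point per library of DES alone (gray), DES with calcium (blue) and DES with cadmium (red), marker shapes for replicates and bars for the mean of the log values. In each of the 8 genes the 3 red points lie above the 3 blue points, and cadmium replicate 2 is the lowest red point.

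Promoters of 3 metallothioneins, SLC30A1 and RGS16 are shown because MTF1 binds a short metal response element, searched here as TGCACNC or TGCGCNC on both strands, with N for any base. The windows are RefSeq sequences (GRCh38.p14) from 250 bases before to 50 after the start, read 5′ to 3′ on the gene's strand, with matches in capitals. The window of MT2A (chr16:56608334-56608633, plus strand) holds 8 matches, that of MT1X (chr16:56682220-56682519, plus strand) 4, that of MT1B (chr16:56651636-56651935, plus strand) 3, that of SLC30A1 (chr1:211579112-211579411, minus strand) 2, and that of RGS16 (chr1:182604340-182604639, minus strand) 3.
MT2A: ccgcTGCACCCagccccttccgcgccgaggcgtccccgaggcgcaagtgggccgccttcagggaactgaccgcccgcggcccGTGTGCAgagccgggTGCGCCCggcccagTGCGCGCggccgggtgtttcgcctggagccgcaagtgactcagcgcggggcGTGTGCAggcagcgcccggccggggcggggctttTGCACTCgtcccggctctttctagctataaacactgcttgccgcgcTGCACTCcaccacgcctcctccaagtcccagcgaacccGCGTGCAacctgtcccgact
MT1X: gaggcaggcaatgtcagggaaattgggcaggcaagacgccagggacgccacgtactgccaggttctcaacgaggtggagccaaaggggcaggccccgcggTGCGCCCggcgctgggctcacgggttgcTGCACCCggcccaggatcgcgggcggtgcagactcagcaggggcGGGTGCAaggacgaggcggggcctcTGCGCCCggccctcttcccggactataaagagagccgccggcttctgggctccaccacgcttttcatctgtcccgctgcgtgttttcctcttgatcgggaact
MT1B: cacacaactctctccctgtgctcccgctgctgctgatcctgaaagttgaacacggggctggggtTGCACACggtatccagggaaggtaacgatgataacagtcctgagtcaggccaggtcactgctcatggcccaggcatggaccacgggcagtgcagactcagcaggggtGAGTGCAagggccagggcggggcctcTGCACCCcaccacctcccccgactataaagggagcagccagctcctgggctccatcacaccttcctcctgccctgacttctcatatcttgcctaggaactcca
SLC30A1: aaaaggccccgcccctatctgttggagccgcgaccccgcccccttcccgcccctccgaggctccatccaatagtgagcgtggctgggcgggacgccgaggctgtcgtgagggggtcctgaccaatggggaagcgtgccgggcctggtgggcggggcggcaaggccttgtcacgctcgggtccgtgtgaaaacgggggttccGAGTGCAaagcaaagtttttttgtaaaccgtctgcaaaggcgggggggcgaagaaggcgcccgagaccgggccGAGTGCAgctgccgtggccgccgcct
RGS16: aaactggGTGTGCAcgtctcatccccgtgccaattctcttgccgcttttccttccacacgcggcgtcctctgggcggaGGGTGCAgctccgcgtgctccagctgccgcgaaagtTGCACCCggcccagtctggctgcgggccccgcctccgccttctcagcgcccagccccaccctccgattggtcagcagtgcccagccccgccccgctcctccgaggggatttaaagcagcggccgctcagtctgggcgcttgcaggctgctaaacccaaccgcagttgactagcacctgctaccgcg

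All 5 metallothionein genes with a window in the table (MT1B, MT1H, MT1X, MT2A and MT4) hold at least 1 match. So do 29.6% of all 35116 promoters and 39.6% of the 8878 members matched by symbol. A match is only a run of letters and does not show binding, and so short a motif is common by this count.

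SLC30A1, which exports zinc from the cytosol and lies outside the metallothionein cluster, measured 235, 123 and 373 FPKM with cadmium and 16.9, 17.9 and 26.0 FPKM with calcium. DES alone gave 17.7, 22.6 and 32.4 FPKM, so that the calcium libraries overlapped DES alone and all cadmium libraries stood above both. The log2 fold change was 3.47 ± 0.42 SE (adjusted p = 0.0742 in the 6 libraries, 0.000897 in the 7-group fit). Of the 18 zinc transporters and MTF1 that were members, SLC30A1 was the one gene the 7-group fit called; 3 had all cadmium libraries above (beside 9.37% of all genes) and 1 below (beside 11.5%), and the list's median log2 fold change was 0.23. Under scaling to total fragments SLC30A1 alone lay apart. MTF1 itself overlapped, at 3.47, 3.61 and 3.82 FPKM against 2.62, 3.95 and 2.25 FPKM.

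RGS16, a regulator that shortens signalling by G proteins, measured 386, 105 and 492 FPKM with cadmium against 16.1, 19.3 and 24.5 FPKM with calcium (log2 fold change 3.77 ± 0.55 SE, adjusted p = 0.155 in the 6 libraries and 0.00334 in the 7-group fit). DES alone gave 15.1, 14.4 and 20.8 FPKM. Without DES the levels were 1.68, 5.63 and 9.33 FPKM with cadmium and 5.04, 18.0 and 4.16 FPKM with calcium, which overlap. The difference between the 2 contrasts was 4.46 ± 1.01 SE on the log2 scale (adjusted p = 0.0634). Without cadmium replicate 2, RGS16 was called with DES (adjusted p = 0.00372), as was SLC30A1 (0.00842). Neither was called with any other library left out. Over all alternative settings their adjusted p reached 0.723 for RGS16 and 0.536 for SLC30A1.

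KLKP1, a transcribed pseudogene in the kallikrein cluster (chr19:50882096-50896398, minus strand, GRCh38), was the gene that passed the test. It measured 22.8, 15.99 and 22.2 FPKM with cadmium and 0.773, 0.483 and 0.204 FPKM with calcium, a mean fold of 41.8 (log2 5.23 ± 0.41 SE, adjusted p = 0.0221). DES alone lay with the calcium libraries, at 0.139, 0.0559 and 0.474 FPKM. Without DES it was at 0.518, 1.85 and 14.1 FPKM with cadmium and at 0 in all 3 calcium libraries. The call was kept in 11 of 18 alternative settings, with adjusted p as high as 0.212, and was lost without cadmium replicate 1, cadmium replicate 3 or calcium replicate 2; the log2 fold change stayed between 3.84 and 5.59.

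The other genes named as higher with cadmium were not called by the 6-library test. The lincRNA AC108134.2 (chr16:3156736-3157483) measured 21.6, 23.8 and 70.1 FPKM against 0.247, 0.618 and 1.30 FPKM (adjusted p = 0.053). CCDC194 measured 4.42, 5.27 and 4.18 FPKM against 0.589, 0.568 and 0.621 FPKM (adjusted p = 0.053). LRFN4, a synaptic adhesion protein, measured 10.8, 9.26 and 18.1 FPKM against 2.48, 3.07 and 1.54 FPKM. None of these 3 groups of values overlap, and CCDC194 had the tightest libraries. DLX3, a homeobox factor, measured 16.1, 18.3 and 20.2 FPKM against 4.40, 4.65 and 7.65 FPKM, but DES alone was at 14.2, 13.1 and 21.9 FPKM, level with cadmium. ASB13, an adaptor of a ubiquitin ligase, measured 5.24, 2.47 and 3.998 FPKM against 0.636, 0.831 and 0.692 FPKM, with DES alone in between at 1.17 to 1.83 FPKM. The antisense transcripts AC022146.2 and AL592301.1 completed the set; reads of antisense and overlapping genes may be mixed, since the sources describe the strand protocol in more than 1 way.

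Heat shock chaperones, which refold proteins and keep them from clumping, were spread to both sides. Of 27 members, 21 had a higher and 6 a lower mean, 7 had all cadmium libraries above the calcium libraries (beside 9.37% of all genes) and 2 below (beside 11.5%), and the median log2 fold change was 0.49. None was called in the 6 libraries or in the 7-group fit. HSPA6, an inducible HSP70, measured 4099, 1468 and 2837 FPKM with cadmium and 898, 501 and 1109 FPKM with calcium. HSPA1A measured 3027, 1591 and 4023 FPKM against 873, 716 and 1021 FPKM, and HSPA1B 2909.7, 1334 and 2901 FPKM against 664, 469 and 697 FPKM (log2 1.90 ± 0.40 SE, adjusted p = 0.258). HSPA1A and HSPA1B are near-identical copies, and their split is uncertain. DES alone was already at 644 to 1262 FPKM for HSPA6, level with calcium, whereas calcium without DES gave 4.596 to 16.2 FPKM.

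SERPINH1, the collagen chaperone, measured 831, 238 and 678 FPKM with cadmium against 189, 141 and 224 FPKM with calcium, and STIP1, which links HSP70 and HSP90, 153, 71.5 and 109.8 FPKM against 54.2, 46.3 and 52.95 FPKM. In the other direction HSPE1, the mitochondrial co-chaperonin, measured 18.6, 34.8 and 39.9 FPKM against 66.7, 55.5 and 67.4 FPKM. HMOX1, which breaks down heme and is known to respond to cadmium, overlapped, at 740.0, 318 and 537 FPKM against 264, 348 and 94.5 FPKM, but lay above under scaling to total fragments. Without cadmium replicate 2, 19 of 27 chaperones lay above all calcium libraries, beside 13.9% of all genes; without replicate 1, 8 of 27 did, beside 16.3%.

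The heat shock element bound by HSF1 was searched as GAANNTTC or TTCNNGAA in the promoters of HSPA6 and HSPA1B, the chaperones with large differences above. The window of HSPA6 (chr1:161524290-161524589, plus strand) holds 3 matches, which overlap in part, and that of HSPA1B (chr6:31827488-31827787, plus strand) holds 1.
HSPA6: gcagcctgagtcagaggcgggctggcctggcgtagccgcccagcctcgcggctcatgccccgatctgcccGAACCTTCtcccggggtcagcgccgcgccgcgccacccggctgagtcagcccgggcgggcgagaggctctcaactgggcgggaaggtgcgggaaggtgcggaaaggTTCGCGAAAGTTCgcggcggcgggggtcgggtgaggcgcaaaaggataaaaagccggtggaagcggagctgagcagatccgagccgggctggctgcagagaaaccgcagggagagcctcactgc
HSPA1B: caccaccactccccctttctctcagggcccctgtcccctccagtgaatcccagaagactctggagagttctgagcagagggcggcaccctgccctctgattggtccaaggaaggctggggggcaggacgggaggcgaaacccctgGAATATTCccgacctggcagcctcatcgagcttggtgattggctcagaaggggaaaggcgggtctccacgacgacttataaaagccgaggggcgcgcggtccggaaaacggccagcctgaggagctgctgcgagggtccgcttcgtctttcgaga

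Of 24 chaperone members with a window, 10 (41.7%) hold a match, beside 13.5% of all promoters. Of 16 immediate early genes with a window, 2 (12.5%) do.

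Immediate early genes, the transcription factors and signalling genes that respond first to stimulation, were mostly lower with cadmium than with calcium. Of 23 members 19 had a lower mean, 9 lay below all calcium libraries (beside 11.5% of all genes) and 2 above (beside 9.37%), with a median log2 fold change of −0.90. None passed the 6-library test, and the 7-group fit called FOSB and JUNB as lower. FOSB measured 0.974, 1.08 and 1.09 FPKM with cadmium against 8.73, 13.96 and 4.71 FPKM with calcium (log2 fold change −2.88 ± 0.40 SE, adjusted p = 0.113 in the 6 libraries, 0.00602 in the 7-group fit). The cadmium libraries sat with DES alone, at 1.37, 0.712 and 0.446 FPKM. JUNB measured 56.8, 47.4 and 47.8 FPKM against 163, 177 and 117 FPKM (−1.57 ± 0.25, adjusted p = 0.181 and 0.00264), and DES alone, at 117, 90.8 and 91.0 FPKM, lay above cadmium and reached the lowest calcium library.

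FOS measured 23.8, 9.42 and 65.6 FPKM with cadmium against 135, 173 and 88.4 FPKM with calcium, and 19.9, 9.32 and 4.47 FPKM with DES alone. The groups of both metals did not overlap, but cadmium replicate 3, the highest of its group, was closest to calcium replicate 3, the lowest of the other. EGR1 measured 6.93, 2.60 and 24.3 FPKM against 40.2, 39.5 and 25.5 FPKM, and the orphan receptor NR4A2 3.81, 3.96 and 6.65 FPKM against 8.94, 16.7 and 7.84 FPKM. The matricellular gene CYR61 measured 22.6, 14.3 and 23.6 FPKM against 30.9, 38.3 and 56.1 FPKM. Against the rest of the list, KLF2 measured 24.8, 26.0 and 24.0 FPKM with cadmium and 9.58, 8.98 and 13.9 FPKM with calcium, and IER5, which assists HSF1, 107, 65.4 and 128 FPKM against 55.1, 34.8 and 42.2 FPKM. Without cadmium replicate 1, 11 of 23 lay below (beside 21.4% of all genes), and without replicate 2, 9 of 23 (beside 16.8%).

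The phosphatases and adaptors that MAP kinase signalling switches on to restrain itself lay on the same side. Of 16 members 14 had a lower mean, 7 lay below all calcium libraries (beside 11.5% of all genes) and 1 above (beside 9.37%), and the median log2 fold change was −0.53. The 7-group fit called DUSP6, SPRY4 and ETV5 as lower. DUSP6, the phosphatase of ERK, measured 4.82, 2.87 and 5.84 FPKM against 9.80, 10.6 and 10.1 FPKM (log2 −1.21 ± 0.30 SE, adjusted p = 0.297 in the 6 libraries, 0.0136 in the 7-group fit). SPRY4 measured 3.34, 3.11 and 3.33 FPKM against 6.40, 9.17 and 5.97 FPKM, and the ETS factor ETV5 0.311, 0.124 and 0.437 FPKM against 1.28, 2.26 and 0.962 FPKM. ERRFI1, an inhibitor of the EGF receptor, measured 18.4, 20.6 and 24.3 FPKM against 42.4, 80.4 and 33.7 FPKM. For SPRY4 and ETV5 the cadmium values were level with or under DES alone, which was at 3.19 to 4.35 and 0.366 to 0.770 FPKM.

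**Figure D3:**
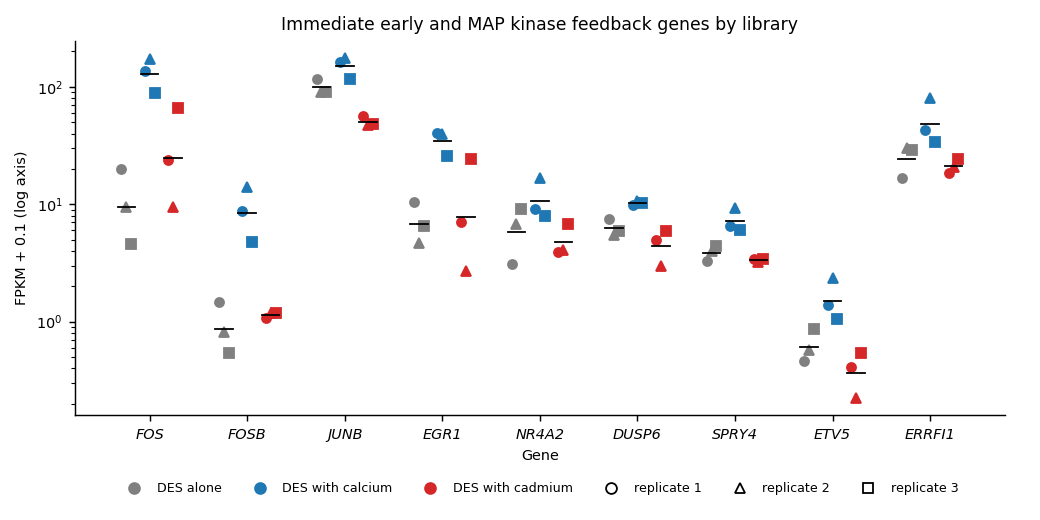
FPKM + 0.1 on a log axis for 5 immediate early genes and 4 MAP kinase feedback genes, with 1 point per library of DES alone (gray), DES with calcium (blue) and DES with cadmium (red), marker shapes for replicates and bars for the mean of the log values. In all 9 genes the blue points lie above the red points, and the red points of FOSB (0.974 to 1.09 FPKM) sit with the gray ones.

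Other genes named as lower with cadmium belonged to neither list. RBM34, an RNA-binding protein, measured 0.999, 0.510 and 0.938 FPKM against 5.38, 3.36 and 3.84 FPKM. The ribosomal protein paralog RPL22L1 measured 16.5, 16.4 and 17.2 FPKM against 38.4, 41.4 and 36.8 FPKM (7-group adjusted p = 0.0012). GEM, a GTPase that restrains calcium channels, measured 0.916, 0.844 and 2.29 FPKM against 6.79, 7.49 and 7.60 FPKM, and DES alone gave 2.17, 2.06 and 4.70 FPKM. The pseudogene YPEL5P2 and the antisense transcript AC135507.1 were near 0 with cadmium and at 1.89 to 4.61 FPKM with calcium. Also named were the noncoding AL021578.1, AC132192.2, ASH1L-AS1 and AC008870.2, with log2 fold changes of −1.60 to −2.47.

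Genes of the G2 and M phases of the cell cycle, which build the mitotic spindle and drive division, followed 1 library. All 38 members had a lower mean with cadmium, with a median log2 fold change of −1.79, and 11 lay below all calcium libraries (beside 11.5% of all genes). None was called in the 6 libraries or the 7-group fit. MKI67, the proliferation marker, measured 3.35, 0.0845 and 11.2 FPKM with cadmium against 9.73, 10.6 and 11.2 FPKM with calcium. TOP2A measured 11.2, 0.0672 and 16.8 FPKM against 21.2, 16.5 and 21.7 FPKM, and cyclin CCNB1 108, 2.11 and 33.3 FPKM against 78.5, 76.3 and 44.0 FPKM. The list's median deviation from each gene's mean was −4.03 on the log2 scale in cadmium replicate 2, against 0.63 and 0.70 in replicates 1 and 3 and 0.89 to 0.95 in the calcium libraries. Without replicate 2 the median was −0.16, with 11 of 38 below (beside 16.8%) and 4 above (beside 13.9%), and without replicate 1 it was −2.73, with 20 below (beside 21.4%).

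The G1 and S phase genes moved with the same library. Of 42 members, 38 had a lower mean and 0 lay apart from the calcium libraries, with a median log2 fold change of −0.45. Without cadmium replicate 2 the median was 0.34, with 5 of 42 above (beside 13.9% of all genes) and 0 below (beside 16.8%). The next genes, CDK1, NUSAP1 and ECT2, belong to the G2/M list. CDK1, the kinase of mitotic entry, was lower in each cadmium library than in any calcium library, at 4.44, 0.844 and 31.1 FPKM against 37.3, 33.0 and 49.5 FPKM. NUSAP1, a spindle protein, measured 4.93, 0.10 and 5.84 FPKM against 13.3, 11.3 and 13.3 FPKM, and ECT2, which directs cytokinesis, 12.4, 8.95 and 27.6 FPKM against 32.5, 34.1 and 36.3 FPKM. Cadmium without DES also had 1 library near 0, replicate 3, at 0.0238 FPKM for MKI67 and 0.0662 FPKM for TOP2A. Cadmium replicate 2 with DES had the lowest share of fragments from the mitochondrial genome, 1.97%, against 3.11% to 5.31% in the other 5 libraries; the part of that share in these values was not tested.

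**Figure D4:**
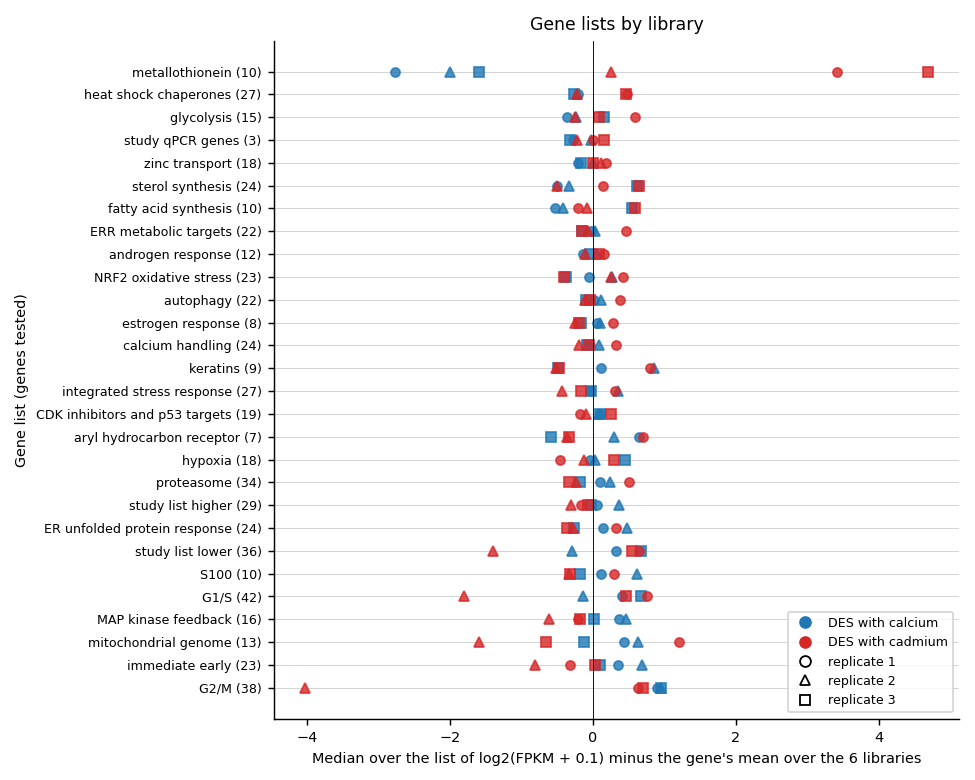
For each gene list and library, the median over the list's members of log2(FPKM + 0.1) minus the gene's mean over the 6 libraries, for DES with calcium (blue) and DES with cadmium (red), with marker shapes for replicates and the number of genes in brackets. The metallothionein points are not read, since 6 of the 10 genes were at 0 in every calcium library and became members only through cadmium. The lowest point of the G2/M list is cadmium replicate 2.

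The remaining lists are read beside 9.37% of all genes above, 11.5% below and a median of −0.04. Proteasome subunits had 1 of 34 above and 6 below, with a median of −0.17, and without cadmium replicate 1 the count below was 19 (beside 21.4%). PSMA1, a core subunit, measured 3.65, 3.50 and 3.70 FPKM against 5.28, 8.89 and 7.12 FPKM, whereas PSMD3, of the lid, was on the other side at 79.7, 65.8 and 41.7 FPKM against 34.7, 30.1 and 36.9 FPKM. The unfolded protein response of the endoplasmic reticulum had 0 of 24 above and 3 below (median −0.22), close to the share over all genes, and 11 below without cadmium replicate 1 (beside 21.4%), with its chaperone HSPA5 overlapping at 466, 114 and 144 FPKM against 499, 994 and 348 FPKM. The integrated stress response had 0 of 27 above and 3 below, or 7 below without cadmium replicate 1 (beside 21.4%), among them CHAC1, which degrades glutathione, at 9.37, 9.25 and 8.16 FPKM against 16.5, 26.1 and 21.01 FPKM, and DDIT3 at 37.2, 20.1 and 18.4 FPKM against 60.5, 73.9 and 40.1 FPKM. NRF2 targets, which guard against oxidation, had 0 of 23 above and 1 below. Without cadmium replicate 2 there were 1 above (beside 13.9%) and 5 below (beside 16.8%). Their median of 0.07 turned to −0.01 under scaling to total fragments and ranged from −0.33 to 0.39 over 17 alternative settings.

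Sterol synthesis genes had 4 of 24 above and 0 below, beside 9.37% and 11.5% of all genes. TM7SF2, a sterol reductase, measured 54.5, 50.7 and 55.2 FPKM with cadmium against 22.5, 21.9 and 39.6 FPKM. The list's median of 0.20 turned to −0.20 without cadmium replicate 3. Of 19 CDK inhibitors and p53 targets, 3 lay above and 3 below: GADD45G measured 76.1, 49.98 and 52.9 FPKM against 22.5, 16.7 and 26.9 FPKM and GADD45B 73.3, 35.8 and 69.3 FPKM against 21.5, 19.3 and 28.6 FPKM, while MDM2, the ligase of p53, at 1.11, 1.91 and 2.32 FPKM against 3.06, 4.05 and 4.64 FPKM, was called as lower by the 7-group fit (adjusted p = 0.039). DES alone was at 50.04 to 56.9 FPKM for GADD45G, level with cadmium.

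Genes of calcium handling had 2 of 24 above and 2 below, or 4 above (beside 16.3% of all genes) and 5 below (beside 21.4%) without cadmium replicate 1, near the shares over all genes. ATP2B1, the calcium pump of the plasma membrane, measured 0.806, 1.60 and 2.15 FPKM with cadmium against 2.68, 7.15 and 2.90 FPKM with calcium, and calmodulin gene CALM2 139.9, 58.2 and 85.4 FPKM against 168, 193 and 146 FPKM. The inositol trisphosphate receptor ITPR3 lay above, at 25.5, 18.4 and 23.0 FPKM against 14.8, 12.96 and 15.8 FPKM, as did the channel TRPM4, which overlapped under scaling to total fragments. The calcium-binding S100 genes (10 members, median −0.39) and the keratins (9, median −0.06) had 0 genes apart. The 13 genes of the mitochondrial genome also had 0 apart, with a median of −0.57, but without cadmium replicate 1 there were 11 of 13 below (beside 21.4%), and without replicate 2 the median was 0.13. Glycolysis had 1 of 15 above (median 0.31), or 4 without cadmium replicate 2 (beside 13.9% of all genes). Fatty acid synthesis had 1 of 10 below, autophagy 2 of 22 below and hypoxia 1 of 18 below. The androgen response had 2 of 12 above (KLKP1 among them), the estrogen response 1 of 8 above, and aryl hydrocarbon receptor genes 1 of 7 on each side.

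Of the genes around ESRRB that the study assayed by PCR, KLF4 and the reference gene RPLP0 were members, and the related receptors ESRRA and ESRRG were added to them here. ESRRB itself was at 0 to 0.0944 FPKM in the 6 libraries, under the limit for membership, as were SOX2, NANOG, POU5F1, ESR1, IGF1, DPT, SFRP2, PRL and ESRRG. ESRRA, the related receptor that governs mitochondrial genes, measured 14.8, 38.7 and 16.6 FPKM with cadmium and 9.67, 9.85 and 11.8 FPKM with calcium, not called (adjusted p = 0.381, or 0.0586 in the 7-group fit) and apart as deposited but overlapping under scaling to total fragments. KLF4 overlapped, at 5.95, 7.31 and 11.002 FPKM against 12.7, 19.5 and 7.89 FPKM, as did RPLP0. Metabolic targets of the estrogen-related receptors had 2 of 22 on each side, near the shares over all genes (9.37% above and 11.5% below), and 6 below without cadmium replicate 1 (beside 21.4%). COX6A1, of cytochrome oxidase, was called as lower by the 7-group fit at 51.5, 66.8 and 52.7 FPKM against 111, 142 and 109.7 FPKM (adjusted p = 0.0201).

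A list of genes higher with calcium, cadmium and GSK4716 had been chosen by the study on its libraries without DES, and is not independent evidence of a direction. Of the 29 in the tested set, 2 lay above and 6 below, with a median of −0.20, and ADAMTS1, a secreted protease, was called as lower by the 7-group fit at 2.32, 3.45 and 4.37 FPKM against 7.82, 6.98 and 9.62 FPKM (adjusted p = 0.0201). Of the 36 tested genes of its counterpart, lower with those agents, 1 lay above and 1 below, and the median was −0.36, or 0.34 without cadmium replicate 2.

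Set against DES alone, limma called 14 genes with cadmium (0.105%), 3 higher (KLKP1, AC108134.2 and AC026461.3) and 11 lower. AC026461.3 was a member only through the cadmium libraries, so the filter fixed its direction. Among the lower genes was TNFAIP3, a brake on NF-kB, by 2.55 on the log2 scale. With the replicate number as a block, which paired these libraries except cadmium replicate 2, 103 genes were called. However, limma-voom, scaling to total fragments and the fits without DES replicate 1, DES replicate 2 or cadmium replicate 3 called 0. These 5 fits had 666 to 1493 genes at an unadjusted p under 0.05. Without DES replicate 3 there was 1 call, and without cadmium replicate 1 or 2 there were 27 and 45. Calcium called 0 genes against DES alone (0.0%) by limma, also with the block and by limma-voom, with 1781 genes at an unadjusted p under 0.05. Both comparisons share the DES libraries, and the difference between their counts was not tested. The log2 fold change against DES alone was 4.90 with cadmium and 0.06 with calcium for MT1E, 5.58 and 0.20 for MT1F, 4.67 and 0.62 for MT1X, and 3.45 and 0.52 for MT2A. The median over the immediate early genes was −0.03 with cadmium and 0.52 with calcium; for the G2/M genes it was −1.70 and 0.17.

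Whether DES changed the difference between the metals was tested as an interaction in a fit of the 12 libraries of both metals with and without DES. It called 90 genes, 56 with a higher (0.421%) and 34 with a lower (0.256%) difference under DES. Of the 90, 72 had the larger metal difference without DES, and 85 had opposite signs in the 2 contrasts. A large difference between the contrasts is what a call required, and it favours opposite signs, so these counts describe the called genes only. Across the 13302 genes the metal difference with DES and that without had Pearson's r = 0.149, given as a description since genes are not independent, and 49.8% of genes had the same sign. No metallothionein was called. The interaction was −6.51 ± 1.43 SE for MT1E (adjusted p = 0.0599), −4.44 ± 1.21 for MT1X (0.099), −2.26 ± 0.86 for MT2A (0.194) and −1.75 ± 1.15 for MT1F (0.443), all toward a larger metal difference without DES. The 6 genes at 0 in every DES with calcium library became members only through DES with cadmium. That selection favours a positive interaction, so their values are not given. Without DES MT2A measured 2001, 2288 and 4088 FPKM with cadmium and 48.9, 75.8 and 103 FPKM with calcium. The interaction was −0.18 ± 0.74 SE for SLC30A1.

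LIF, a cytokine of the interleukin-6 family, had the smallest p (interaction 7.90 ± 0.81 SE on the log2 scale, adjusted p = 0.00621). Without DES it measured 50.4, 123 and 39.2 FPKM with calcium and 0.0416, 0.359 and 0.215 FPKM with cadmium, far apart. With DES it measured 1.24, 0.734 and 0.998 FPKM with calcium and 1.02, 0.472 and 2.08 FPKM with cadmium, which overlap. It was the 1 gene of the 90 that kept its call in all 12 fits without 1 library.

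NAB2, a corepressor of EGR1, turned over between the contrasts. Without DES it was higher with calcium, at 47.9, 39.4 and 33.0 FPKM against 13.8, 21.2 and 20.9 FPKM. With DES it was higher with cadmium, at 65.8, 80.0 and 100.3 FPKM against 33.3, 29.1 and 19.2 FPKM (interaction 2.72 ± 0.38 SE, adjusted p = 0.0288). P3H4, of collagen modification, was at 8.001 to 11.7 FPKM with calcium and 1.55 to 2.90 FPKM with cadmium without DES, and at 2.45 to 3.48 and 4.03 to 4.67 FPKM with it. In the opposite direction, GDAP1, a mitochondrial fission protein, was at 7.23 to 15.2 FPKM with cadmium and 1.09 to 1.93 FPKM with calcium without DES, and overlapped with it. C3orf14 had an interaction of −2.24. Of the lists, the immediate early genes had a median metal difference of −0.90 with DES and −1.86 without. Among them 2 of 23, LIF and KLF2, had a called interaction, both higher, beside 0.421% of all genes called as higher. The call of KLF2 held in 3 of 12 fits without 1 library.

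**Figure D5:**
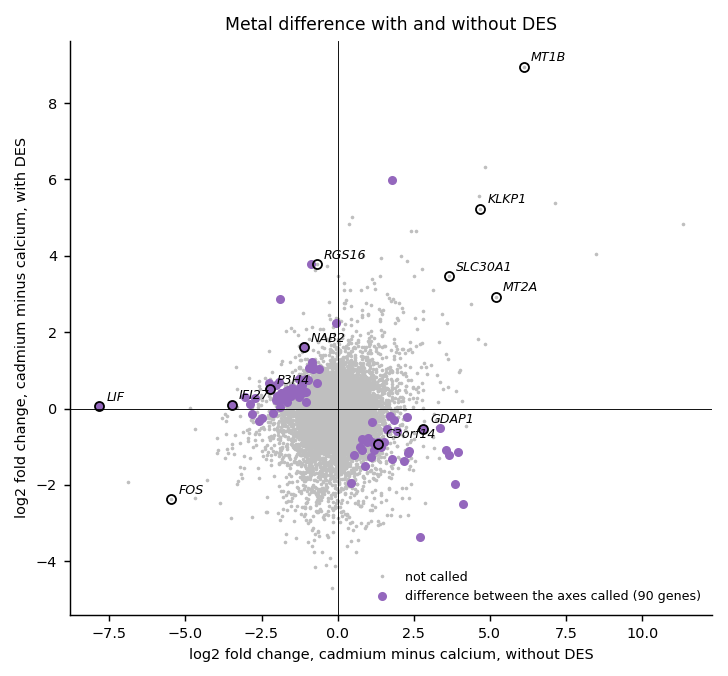
For each of the 13302 genes, the log2 fold change of cadmium minus calcium without DES (horizontal) and with DES (vertical). Purple points are the 90 genes whose difference between the axes was called; LIF lies far to the left at a vertical value of 0.06, and KLKP1, MT1B, MT2A and SLC30A1 lie high on both axes.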

How the data were processed

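The deposited table gives FPKM per gene for 21 libraries. Per the labels, poly(A) mRNA was sequenced as paired ends, aligned with HISAT2 2.0.5 and counted with featureCounts 1.5.0-p3 on GRCh38.p14, and the authors then scaled the counts to FPKM by gene length and library size. Strand is described in more than 1 way.

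Genes of at least 200 bases and a mean of at least 0.5 FPKM over the 6 libraries were tested with limma 3.58.1 (R 4.3.3, trended prior, two-sided) on log2(FPKM + 0.1), with Benjamini-Hochberg adjustment over all 13302 and a threshold of 0.05. Only the groups compared entered each fit. Fragments per gene were recovered from the FPKM steps, and a gene was taken as at its limit at 3 fragments per library, which covers counting error only. On simulated data for the main comparison, 84.5% of genes changed 4-fold and 99% of those changed 8-fold were recovered, and for the interaction 51% and 94%. The simulation gave all genes and groups the same spread. In the real libraries DES with cadmium varied more (median SD 0.496) than DES with calcium (0.277), so these shares do not carry over to them.

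Genes were named by rule: 12 places per direction, by p among genes of at least 1 FPKM with a log2 change of at least 1 and no overlap where too few were called, the metallothioneins, the PCR genes with ESRRA and ESRRG, up to 3 per list and direction, and up to 6 for the interaction. The comparison, lists and rule were chosen with earlier results of these data known. Other genes were named after their values were seen. Replicate numbers paired most libraries in the comparisons with DES alone (correlations of deviations 0.18 to 0.54 with cadmium, 0.12 to 0.34 with calcium). Cadmium replicate 2 was the exception, at 0.18 with its own number and 0.28 with another. Some genes that the rule names are not reported here.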

Additional observations from a re-analysis of the deposited data

Results flagged for a closer look

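The difference between cadmium and calcium differed with and without DES, by the interaction test in limma, for 90 genes. Among those with the smallest p were LIF (interaction 7.90 on the log2 scale, adjusted p = 0.00621), C3orf14 (−2.24, 0.0288), P3H4 (2.74, 0.0288), NAB2 (2.72, 0.0288) and GDAP1 (−3.32, 0.0288). C3orf14 measured 12.4, 13.4 and 17.7 FPKM with cadmium and 26.5, 28.6 and 26.5 FPKM with calcium under DES, and 20.8, 17.8 and 14.4 FPKM against 5.91, 7.66 and 7.36 FPKM without it.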

How the results depend on the processing

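Main comparison (1 call): 4 genes were called with a pseudocount of 1, 0 without the FPKM filter, 3 at a mean of at least 2 FPKM, 6 without the length filter, 0 after quantile normalization, 504 with all 7 groups in one fit, 535 with arrayWeights, 0 by limma-voom on recovered fragments (1611 genes had an unadjusted p under 0.05 in limma), 5 with robust eBayes, and 0 to 15 with 1 library left out. Interaction (90 calls): 156 with a pseudocount of 1, 2 without the FPKM filter, 56 under scaling to total fragments, 201 after quantile normalization, 890 with 7 groups, 2348 with arrayWeights and 1 to 154 with 1 library left out. Cadmium with DES against DES (14 calls): 49 with a pseudocount of 1, 3 without the FPKM filter, 2 at 2 FPKM, 3 under median-ratio scaling, 0 under total fragments, 54 after quantile normalization, 515 with 7 groups, 2013 with arrayWeights, 0 by limma-voom, 3 with robust eBayes and 0 to 45 with 1 library left out. Calcium with DES against DES (0 calls, 1781 genes at an unadjusted p under 0.05): 5 without the length filter, 132 with 7 groups, 1142 with arrayWeights and 0 to 1 with 1 library left out. The causes were not tested. Counts of genes without overlap were also taken under settings chosen after seeing the data: 1848 to 2168 above and 2239 to 2852 below without cadmium replicate 2 or 1. Under median-ratio scaling they were 1342 above and 1448 below, and under total fragments, which moves the median of all genes to −0.119, 953 above and 1751 below. The fold bounds without 1 cadmium library were likewise added after seeing the data.

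With the replicate number as a block, 1 gene was called in the main comparison (AC108134.2, with KLKP1 at an adjusted p of 0.0710), 161 in the interaction, 103 for cadmium with DES against DES and 0 for calcium. In the main comparison the numbers did not pair the libraries (correlations −0.049 to 0.252). Of the gene list medians under the alternatives, 462 moved by less than the spread and 14 by more. An arrayWeights fit stopped before converging. Depth limits genes near 3 fragments per library. Under total fragments the unfolded protein and integrated stress responses each had 6 genes below, against 3 as deposited.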

Other observations

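The genes called in the interaction included OASL, IFI27, RSAD2 and IRF7, which take part in the antiviral interferon response. They were picked from the calls after their values were seen, and no list of interferon genes was tested. OASL, an antiviral sensor protein, measured 6.91, 4.14 and 4.45 FPKM with cadmium and 5.94, 4.22 and 3.99 FPKM with calcium under DES. Without DES it measured 2.03, 1.76 and 1.89 FPKM against 23.1, 14.6 and 9.05 FPKM (interaction 2.99 ± 0.46 SE on the log2 scale, adjusted p = 0.0297 by limma). IFI27 measured 5.73, 3.36 and 4.55 FPKM against 6.42, 2.56 and 4.24 FPKM under DES, and 1.98, 2.35 and 0.851 FPKM against 20.4, 19.4 and 16.7 FPKM without it (adjusted p = 0.0297). RSAD2 and IRF7 had adjusted p = 0.0374 and 0.0316. None of these 4 calls held in all 12 fits without 1 library.

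Genes at or under 3 fragments in every library of one metal and above that in every library of the other numbered 16 on the cadmium side, 2 of them protein-coding (MT1B and CD300C), and 43 on the calcium side, 0 of them protein-coding. Such genes became members only through the metal that showed them, and their counts bear on neither direction. CD300C rested mostly on cadmium replicate 2, at 6.51 FPKM against 0.410 and 0.145 FPKM in the others.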
